A study of Homo sapiens with 12 samples.

Results

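The RNA of 10 receptor tyrosine kinases was examined in 3 gastric cancer cell lines: the FGF receptors FGFR1, FGFR2, FGFR3 and FGFR4, the MET family receptors MET and MST1R, the insulin family receptors IGF1R and INSR, the ephrin receptor EPHA2, and AXL. They were taken by name from a value table of 34595 genes, and each of the 10 had 1 row. KATO-III, SNU-216 and SNU-601 are established human lines, and the array labels give no genotype and no treatment, so the lines differ in everything that separates the tumours they came from. All were grown in RPMI1640 with calf serum, stained with an antibody to CD133, a membrane glycoprotein encoded by PROM1 that is used as a stem cell marker, and sorted by flow cytometry into CD133+ cells (the top 10% in fluorescence) and CD133- cells (the bottom 6%). Each of the 6 sorted populations was hybridized to 2 Illumina HT-12 v3 arrays, 12 in all. The deposited design text names SNU201 in place of SNU-216, and the labels of the arrays were followed. Whether the arrays of a population came from separate sorts is not given in the sources used here, so the p-values measure the spread between these arrays, which may be technical.

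Receptor tyrosine kinases span the cell membrane. Binding of a ligand brings receptor chains together, the kinase domains phosphorylate each other, and adaptor proteins that bind the phosphotyrosines pass the signal to the RAS-MAPK and PI3K-AKT pathways. In gastric cancer FGFR2, MET, ERBB2 and EGFR are known targets of gene amplification, and KATO-III is a commonly used line with amplified FGFR2. The arrays measured RNA, and the number of gene copies was not measured here.

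The deposited values are background-subtracted intensities on a linear scale, so a gene with no signal scatters around 0. A floor of 32.7 was set before log2 was taken. A gene was tested where it exceeded the floor on at least 2 arrays, which 20147 genes (58.2%) did. Differences below are on the log2 scale with the standard error (SE) of the fit. Adjusted p-values are from limma with Benjamini-Hochberg adjustment over all genes tested, with 0.05 as the threshold. The spread of a gene is shared by all populations. A population wholly at the floor adds none, so the SE and adjusted p of such a gene can be too small. Among these genes are FGF9, FGF20, PROS1, BTBD16, DMBT1, CAV2, IGFBP2, IGFBP4 and IGFBP5. Intensities are compared between arrays for a single gene, not between genes, since probes differ in brightness. The exception is the sums over marker lists, which are set mostly by the brightest genes of a list.

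Between 16320 and 16474 genes exceeded the floor on an array. The sort showed in PROM1, the gene of CD133, which was higher in CD133+ cells by 1.10 in KATO-III, 2.02 in SNU-216 and 1.86 in SNU-601. The 5 epithelial markers EPCAM, KRT8, KRT18, KRT19 and CLDN4 exceeded the floor in every population, with sums of 40380 to 47001, and the 5 endothelial markers in none. Of the leukocyte markers, PTPRC and CD3E exceeded the floor on no array, while LYZ lay between 4483 and 10021 in KATO-III and SNU-601 and CD14 between 835 and 1242 in KATO-III. Of the fibroblast markers, COL3A1 and DCN exceeded the floor on no array. LUM, which encodes the matrix proteoglycan lumican, was at 64.4 and 91.6 in CD133+ and 743 and 783 in CD133- cells of KATO-III, whereas COL1A1, a collagen chain, was at 51.4 and 67.1 against 20.6 and 27.2. The summed fibroblast list was 108 to 134 in the CD133+ and 771 to 825 in the CD133- cells of KATO-III, and 62.2 to 83.5 against -1.1 to 15.5 in SNU-216. The summed leukocyte list was 7948 to 8284 against 5727 to 5926 in KATO-III, with LYZ at 7078 and 7457 against 4747 and 4483 and CD14 at 856 and 835 against 1202 and 1242, and it was 9108 to 9199.5 against 9438 to 10066 in SNU-601. The sums of both lists thus differed between the fractions of KATO-III, that of the fibroblast list also in SNU-216 and that of the leukocyte list in SNU-601. In KATO-III the sums followed LUM and LYZ, while COL1A1 and CD14 went the other way. The fibroblast sums of SNU-216 were made up mostly of genes under the floor. The part of these markers in the fraction differences given below was not tested. In sorted bulk cells, fewer cells with a transcript and less of it per cell cannot be told apart.

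Of the 10 receptors, 9 were tested, and FGFR1 exceeded the floor on no array. FGFR2 passed the filter only through KATO-III, so that it had to differ between lines, and the counts below are descriptions. Between KATO-III and SNU-216, 7 of the 9 differed (4 higher and 3 lower in KATO-III), where 62% of all genes tested did (30.3% higher and 31.7% lower). Between KATO-III and SNU-601, 6 differed (2 higher and 4 lower in KATO-III), against 58.6% of all genes (28.7% higher and 29.9% lower). Between SNU-216 and SNU-601, 6 differed (2 higher and 4 lower in SNU-216), against 56.5% (29.4% higher and 27.1% lower). In the F-test over the 3 lines, 8 of the 9 were called, against 72.3% of all genes, and the 1 receptor not called was MET. That of INSR (adjusted p = 0.0228) was lost with a floor of 16 (0.0705), and those of INSR and IGF1R (0.0132) were lost without the filter on dim genes (0.0831 and 0.0512).

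**Figure D1:**
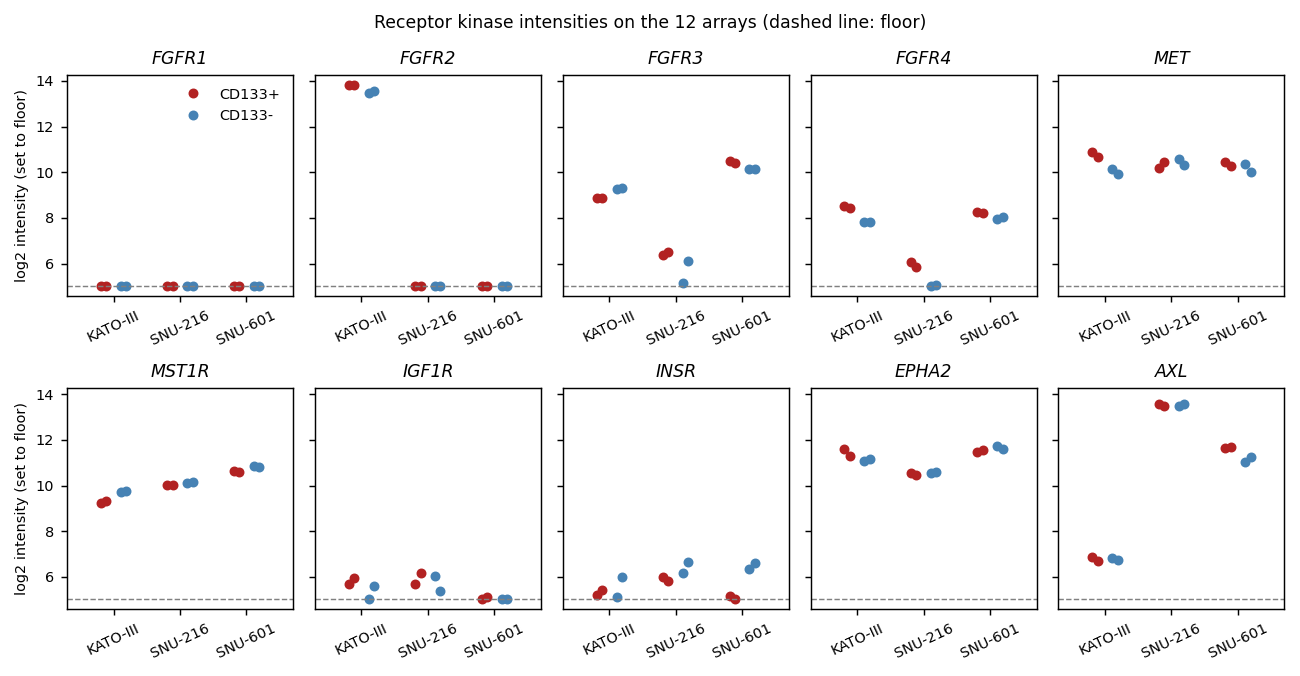
Log2 intensity of the 10 receptors (vertical axis, values under the floor set to it) on each of the 12 arrays, by cell line, with CD133+ arrays in red and CD133- arrays in blue and the floor as a dashed line. FGFR2 was above the floor in KATO-III alone, AXL was lowest in KATO-III, and MET overlapped between the lines.

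Among the FGF receptors, which bind fibroblast growth factors together with heparan sulfate, FGFR2 was bright in KATO-III and at the floor elsewhere, FGFR3 and FGFR4 were lowest in SNU-216, and FGFR1 was not detected. FGFR1 lay between -29.5 and -11.9 on the 12 arrays. FGFR2 was at 14641 and 14601 in the CD133+ cells of KATO-III and at 11326 and 12012 in the CD133- cells. It lay between -1.7 and 4.8 on the SNU-216 arrays and between -32.4 and -15.2 on the SNU-601 arrays, so no array of either line came near KATO-III. Against the floor, KATO-III was at least 399-fold higher than each of the other lines (8.64 on the log2 scale). No test is given, since all 8 arrays of those lines were set to the floor and have no spread, and the pooled SE of this gene includes them.

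Within KATO-III, FGFR2 was higher in CD133+ than in CD133- cells, and the arrays of the fractions did not overlap. The difference was 0.33 (SE 0.0765, 95% interval 0.15 to 0.50, 1.25-fold, adjusted p = 0.00863), small beside the difference between lines. The arrays of the other lines, all at the floor, enter this SE and adjusted p with no spread of their own. In a fit of the 4 KATO-III arrays alone, chosen after seeing the data, the difference passed as well (SE 0.0581, adjusted p = 0.00692). Without CD133- replicate 1 it was 0.28 and no longer passed (adjusted p = 0.0687). In SNU-216 and SNU-601 both fractions were at the floor, so no difference could be given there.

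FGFR3 had 3 separate levels in the 3 lines. In SNU-601 it was at 1419 and 1352 in CD133+ and at 1129 and 1130 in CD133- cells, and in KATO-III at 471 and 474 in CD133+ and 624 and 642 in CD133- cells. In SNU-216 it was at 82.4 and 90.1 in CD133+ and at 35.6 and 70.1 in CD133- cells. The order SNU-601, KATO-III, SNU-216 held on every array of these lines. SNU-601 exceeded KATO-III 2.29-fold (adjusted p = 0.000244) and SNU-216 19.1-fold (adjusted p = 2.31e-08), and KATO-III exceeded SNU-216 8.34-fold (log2 3.06, SE 0.173, adjusted p = 2.53e-07).

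The fractions differed in FGFR3 in SNU-216 by 0.79 (SE 0.245, 95% interval 0.23 to 1.34, adjusted p = 0.0409), with both CD133+ arrays above both CD133- arrays. That call depended on the arrays used. It was lost when any of 10 of the 12 arrays was left out, namely all arrays of the other lines and both SNU-216 CD133+ arrays (adjusted p from 0.0668 to 0.177), and the difference ranged from 0.30 to 1.28 over the arrays left out, with the ends set by the SNU-216 CD133- arrays. It was also lost without the trend (adjusted p = 0.0569) and without the filter on dim genes (adjusted p = 0.139). In KATO-III the difference was -0.42 (95% interval -0.98 to 0.13, adjusted p = 0.222), although its CD133+ arrays lay below its CD133- arrays. In SNU-601 it was 0.29 (adjusted p = 0.513), with the CD133+ arrays above. The 2 SNU-216 CD133- arrays differed from each other more than any other pair for this gene, and the spread is shared by all populations. Without SNU-216 CD133- replicate 1 the differences in KATO-III and SNU-601 passed (adjusted p = 0.00178 and 0.0222), and without replicate 2 as well (0.00193 and 0.0237). With a floor of 100 both passed (0.000223 and 0.00493), but all SNU-216 arrays were then at the floor and stayed in the shared spread with none of their own. With each line fitted on its own arrays both passed (0.00695 and 0.027) and the SNU-216 difference did not (0.144).

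FGFR4, the receptor for the bile acid hormone FGF19, had like levels in KATO-III and SNU-601 and a low level in SNU-216. In KATO-III it was at 362 and 344 in CD133+ and at 224 and 225 in CD133- cells. In SNU-601 it was at 306 and 298 in CD133+ and at 248 and 265 in CD133- cells. In SNU-216 it was at 66.9 and 58.2 in CD133+ and at 30.1 and 33.2 in CD133- cells, the first of these below the floor. The SNU-216 arrays lay under all others. KATO-III and SNU-601 differed by 0.02 (95% interval -0.16 to 0.19, adjusted p = 0.902). Both exceeded SNU-216, by at least 6.20-fold (log2 2.63, SE 0.0761, adjusted p = 2.05e-09) and at least 6.14-fold (adjusted p = 2.15e-09).

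In each of the 3 lines both CD133+ arrays were above both CD133- arrays for FGFR4. It was higher in CD133+ cells by 0.65 in KATO-III (SE 0.108, 1.57-fold, adjusted p = 0.00129) and by at least 0.92 in SNU-216 (1.89-fold, adjusted p = 0.000334). The SNU-601 difference was 0.24 (95% interval -0.01 to 0.48, adjusted p = 0.189). It passed with a floor of 100 (adjusted p = 0.0183), where all SNU-216 arrays were at that floor and added no spread. In a fit of the SNU-601 arrays alone, chosen after seeing the data, it did not pass (SE 0.126, adjusted p = 0.263).

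Since FGFR2 lies on chromosome 10, the genes next to it were examined, taken in the order of the RefSeq annotation of GRCh38.p14. Of the 20 protein-coding genes on either side, 33 of 40 were in the table and 27 were tested. KATO-III exceeded the mean of the other lines by over 1 on the log2 scale in 2 of them and was below it by over 1 in 0, with a median difference of 0.08. Over all genes tested the shares were 9.14% and 8.31% and the median -0.04. Both genes lay on the same side: BTBD16, which encodes a BTB domain protein, at the fourth place from FGFR2, and HTRA1, a secreted serine protease, at the seventh.

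HTRA1 lay between 3260 and 4707 on the KATO-III arrays, between 15.1 and 24.2 in SNU-216 and between 297 and 572 in SNU-601. Against the floor it was higher in KATO-III than in SNU-216 by at least 6.90 on the log2 scale, and it was 9.59-fold higher than in SNU-601. BTBD16 lay between 1002 and 2304 in KATO-III, between -40.9 and -9.7 in SNU-216 and between 67.0 and 109 in SNU-601. Unlike FGFR2, BTBD16 was lower in CD133+ than in CD133- cells of KATO-III, by 1.13 on the log2 scale (1002 and 1039 against 2159 and 2304, adjusted p = 2.75e-05).

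The direct neighbours of FGFR2 differed less. WDR11 (listed under its older symbol BRWD2) lay between 714 and 971 in KATO-III, between 385 and 439 in SNU-216 and between 380 and 619 in SNU-601, a difference of 0.95 from the mean of the other lines. ATE1, an arginyltransferase on the other side, lay between 58.3 and 87.0 in KATO-III, between 64.3 and 90.3 in SNU-216 and between 149 and 191 in SNU-601. PPAPDC1A, beyond WDR11, differed by 0.78 with 5 arrays above the floor. The 4 neighbours NSMCE4A, TACC2, PLEKHA1 and ATE1 all differed by under 1. DMBT1, a mucosal scavenger receptor gene next to HTRA1, was at 10.0 and 0.8 in CD133+ and at 138 and 143 in CD133- cells of KATO-III (-2.10, adjusted p = 2.38e-05). This is a lower bound in size, since both CD133+ arrays were set to the floor. Those arrays and the SNU-601 arrays, also at the floor, add no spread to the adjusted p.

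**Figure D2:**
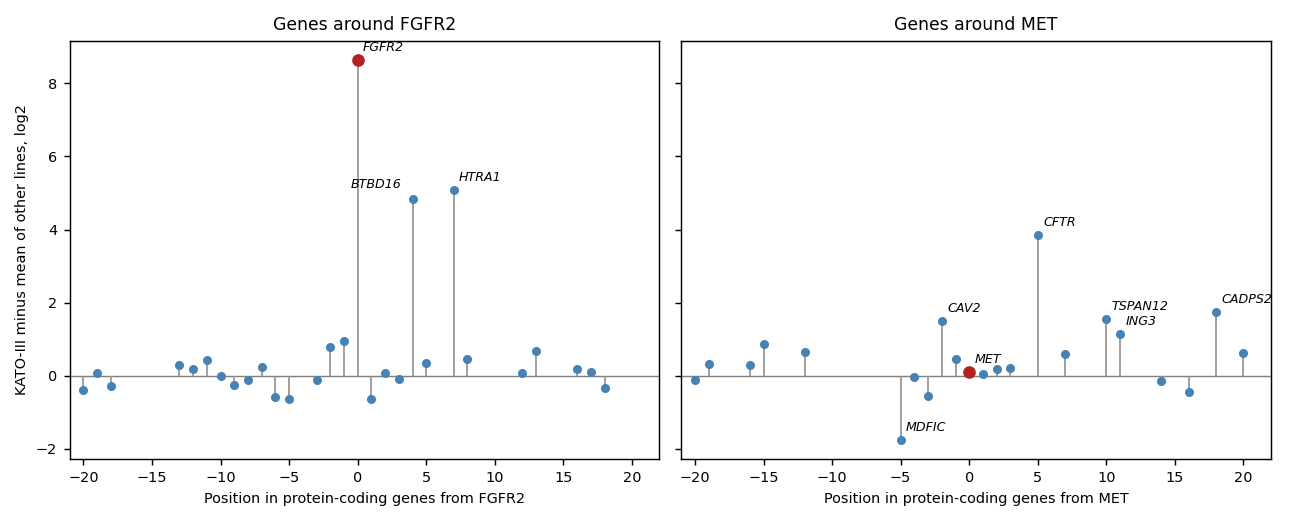
Difference in log2 intensity between KATO-III and the mean of the other lines (vertical axis) for each tested gene, by its place in protein-coding genes from FGFR2 (left) and MET (right), each shown in red at 0. BTBD16 and HTRA1 are 2 high points near FGFR2, with the other tested genes within 1 of 0, and around MET the points over 1 are CAV2, CFTR, TSPAN12, ING3 and CADPS2.

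Of 27 FGF ligands and co-receptors, 16 were tested. In CD133+ cells 2 were higher and 5 lower in KATO-III, 2 were higher and 0 lower in SNU-216, and 3 were higher and 1 lower in SNU-601. Of all genes tested, 18.7% were higher and 20.6% lower in the CD133+ fraction of KATO-III, 14.6% and 14% in SNU-216, and 8.59% and 7.78% in SNU-601. FGF9, a ligand of FGFR2 and FGFR3 among others, lay between 1251 and 1476 in KATO-III, between -16.3 and 2.4 in SNU-216, and at 207 and 215 in CD133+ and 98.8 and 85.5 in CD133- cells of SNU-601. KATO-III exceeded SNU-601 9.79-fold (adjusted p = 6.71e-10) and SNU-216 at least 41.7-fold, and within SNU-601 the CD133+ cells were higher by 1.20 (adjusted p = 0.000286). FGF20, of the same ligand subfamily, was above the floor in SNU-601 alone, at 244 and 256 in CD133+ and 81.4 and 96.1 in CD133- cells (1.50, adjusted p = 0.000211). For FGF20 the arrays of the other lines, all at the floor, add no spread to this adjusted p. FGF2, the basic FGF, was above the floor in SNU-216 alone, at 133 to 166. FGF7 and FGF10, the main ligands of the epithelial form of FGFR2, exceeded the floor on no array.

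MET, the receptor of hepatocyte growth factor (HGF), was the receptor for which no difference between lines was called. In KATO-III it was at 1905 and 1623 in CD133+ and at 1140 and 977 in CD133- cells. In SNU-216 it was at 1167 and 1391 in CD133+ and at 1522 and 1294 in CD133- cells, and in SNU-601 at 1387 and 1221 in CD133+ and 1295 and 1020 in CD133- cells. The ranges of the 3 lines overlapped. KATO-III differed from SNU-216 by 0.03 (95% interval -0.22 to 0.27, adjusted p = 0.855) and from SNU-601 by 0.16 (95% interval -0.09 to 0.40, adjusted p = 0.251), and SNU-216 from SNU-601 by 0.13 (95% interval -0.11 to 0.37, adjusted p = 0.358). These intervals allow differences of up to 0.40 between lines, each taken as the mean of both fractions. In CD133+ cells the mean log2 intensity was 10.78 in KATO-III, 10.32 in SNU-216 and 10.35 in SNU-601. In CD133- cells it was 10.04, 10.45 and 10.17, and differences between lines within a fraction were not tested.

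The fractions of KATO-III did differ in MET, by 0.74 (SE 0.151, 1.67-fold, adjusted p = 0.00432), with both CD133+ arrays above both CD133- arrays. Without CD133+ replicate 1 the difference was 0.62 (adjusted p = 0.0527). In SNU-216 it was -0.14 (95% interval -0.48 to 0.20, adjusted p = 0.598) and in SNU-601 0.18 (95% interval -0.16 to 0.52, adjusted p = 0.519), with overlapping arrays in both. The KATO-III CD133+ and CD133- arrays were the highest and the lowest of the 12 for MET, with the exception of CD133- replicate 1 at 1140, above SNU-601 CD133- replicate 2.

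MST1R encodes RON, the receptor of macrophage-stimulating protein and the closest relative of MET. Its order over the lines was SNU-601, SNU-216, KATO-III. It was at 596 and 650 in CD133+ and 843 and 877 in CD133- cells of KATO-III, at 1041 and 1046 in CD133+ and 1120 and 1128 in CD133- cells of SNU-216, and at 1609 and 1566 in CD133+ and 1846 and 1790 in CD133- cells of SNU-601. No arrays of different lines overlapped. SNU-601 exceeded KATO-III 2.32-fold (adjusted p = 5.32e-09) and SNU-216 1.57-fold (adjusted p = 2.58e-07), and SNU-216 exceeded KATO-III 1.48-fold (adjusted p = 7.2e-07).

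In every line both CD133+ arrays were below both CD133- arrays for MST1R, opposite to MET in KATO-III. The difference in KATO-III was -0.47 (SE 0.0523, 1.38-fold lower, adjusted p = 0.000139). In SNU-216 it was -0.11 (95% interval -0.23 to 0.01, adjusted p = 0.181). In SNU-601 it was -0.20 (adjusted p = 0.0351), and this call was lost without any of the 4 SNU-601 arrays (adjusted p of 0.0801 and 0.136 without CD133+ replicates 1 and 2, and of 0.141 and 0.0766 without CD133- replicates 1 and 2). It was also lost with arrays centred on their medians, with an offset of 100 in place of the floor and without the trend (adjusted p = 0.0672, 0.0601 and 0.0832), and with each line fitted on its own arrays (0.0686).

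MET lies on chromosome 7, and of the 20 protein-coding genes on either side 34 of 40 were in the table and 21 were tested. KATO-III exceeded the mean of the other lines by over 1 on the log2 scale in 5 and was below it by over 1 in 1, MDFIC (-1.74), a regulator of transcription factors, with a median difference of 0.33. All genes tested had shares of 9.14% and 8.31%. The nearest genes on one side had like levels in the 3 lines: CAPZA2, an actin capping subunit, lay between 7524 and 11567 on all arrays, and ST7 between 1176 and 1803. CFTR, the chloride channel gene at the fifth place on that side, lay between 1324 and 1695 in KATO-III, between 41.5 and 75.7 in SNU-216 and between 160 and 198 in SNU-601. TSPAN12, ING3 and CADPS2, further out on the same side, were also among the 5, but CADPS2 was lower in KATO-III (479 to 606) than in SNU-601 (756 to 854). On the other side CAV1 and CAV2, the caveolins, differed widely. CAV1 lay between 9195 and 9997 in SNU-216, between 792 and 1289 in KATO-III and between 30.5 and 113 in SNU-601, and CAV2 between 8237 and 9220, between 1128 and 1928, and between 12.9 and 27.4. CAV2, the fifth of the 5, was thus lower in KATO-III than in SNU-216. Between fractions, CAV1 was higher in CD133+ cells of SNU-601 by 1.48 (adjusted p = 0.000548) and CAV2 lower in CD133+ cells of KATO-III by 0.66 (1270 and 1128 against 1928 and 1852, adjusted p = 6.9e-05).

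Of 9 genes for HGF, macrophage-stimulating protein and the proteases that act on them, 7 were tested. HGF itself, and its activator HGFAC, exceeded the floor on no array. In CD133+ cells 1 was higher and 2 lower in KATO-III, 0 higher and 1 lower in SNU-216, and 2 higher and 1 lower in SNU-601, where 39.3%, 28.6% and 16.4% of all genes tested differed. MST1, the gene of macrophage-stimulating protein, was at 269 and 271 in CD133+ and at 793 and 702 in CD133- cells of KATO-III, a difference of -1.47 (SE 0.26, adjusted p = 0.00194). MST1 and its receptor MST1R were thus both lower in the CD133+ cells of that line. PLAU, urokinase, lay between 12272 and 14091 in SNU-216, between 463 and 688 in KATO-III and between 14.7 and 51.1 in SNU-601. HPN, the membrane protease hepsin, was above the floor in SNU-601 alone, at 468 to 631. F12, coagulation factor XII, was at 1869 and 1768 in CD133+ and at 3255 and 3510 in CD133- cells of SNU-216 (-0.89, adjusted p = 0.000169), and the SNU-601 difference had the other direction (0.78, adjusted p = 0.00105).

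IGF1R and INSR, the receptors of the insulin-like growth factors and of insulin, were dim in all lines, and their arrays scattered near the floor. IGF1R was at 52.2 and 61.5 in CD133+ and 31.8 and 49.0 in CD133- cells of KATO-III, at 51.1 and 72.0 in CD133+ and 66.7 and 41.7 in CD133- cells of SNU-216, and at 12.3 and 34.2 in CD133+ and 26.5 and 19.7 in CD133- cells of SNU-601. It exceeded the floor on 8 arrays, and 3 of the 4 SNU-601 arrays were below it. Differences from SNU-601 are therefore lower bounds, and its CD133- arrays, both set to the floor, add no spread to the adjusted p-values given here. SNU-216 exceeded SNU-601 at least 1.71-fold (log2 0.77, adjusted p = 0.00634), KATO-III exceeded it by at least 0.53 (adjusted p = 0.04), and KATO-III and SNU-216 differed by -0.25 (adjusted p = 0.297). The call of KATO-III against SNU-601 was lost without any of the SNU-601 arrays and without any KATO-III array but CD133- replicate 1, with adjusted p from 0.0688 to 0.143, and without the filter on dim genes (adjusted p = 0.113). The fraction differences of IGF1R were 0.50, 0.20 and 0.03 in KATO-III, SNU-216 and SNU-601 and passed in none (adjusted p = 0.188, 0.691 and 1).

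INSR was at 36.9 and 43.5 in CD133+ and 34.5 and 62.9 in CD133- cells of KATO-III, at 63.8 and 57.2 in CD133+ and 71.8 and 99.9 in CD133- cells of SNU-216, and at 36.1 and 20.002 in CD133+ and 82.2 and 97.3 in CD133- cells of SNU-601. The CD133+ arrays lay below the CD133- arrays in SNU-216 and SNU-601 and overlapped with them in KATO-III. SNU-601 had the one called difference, -1.38 (SE 0.276, at least 2.60-fold lower, adjusted p = 0.0104). It is a lower bound in size, since the CD133+ array at 20.002 was set to the floor. The difference was -1.31 without CD133+ replicate 2 and -1.26 without CD133- replicate 2, and the call was lost in both fits. The differences were -0.22 in KATO-III (adjusted p = 0.615) and -0.49 in SNU-216 (adjusted p = 0.249). Between lines, KATO-III was below SNU-216 by 0.73 on the log2 scale (1.66-fold, adjusted p = 0.00932). The other pairs did not pass (adjusted p = 0.148 for each), but without KATO-III CD133- replicate 2 both did (adjusted p = 0.0127 and 0.0499). The F-test over the lines (adjusted p = 0.0228) was lost without either CD133+ array of KATO-III, either CD133+ array of SNU-216, or SNU-216 CD133- replicate 2 (adjusted p up to 0.0907).

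Several binding proteins of the IGFs differed widely between lines. Of 14 IGF and insulin ligands, binding proteins and substrates 12 were tested, and the ligands IGF1 and IGF2 exceeded the floor on no array. In CD133+ cells 2 were higher and 2 lower in KATO-III, 2 higher and 2 lower in SNU-216, and 3 higher and 2 lower in SNU-601 (all genes tested: 39.3%, 28.6% and 16.4% called). The binding proteins, which hold IGFs in the medium, divided the lines. IGFBP3 lay between 11668 and 13212 in SNU-216 and below the floor on all other arrays, at least 388-fold lower. IGFBP4 lay between 5314 and 7242 in KATO-III, at 1020 and 1074 in CD133+ and 383 and 392 in CD133- cells of SNU-216 (1.43, adjusted p = 1.08e-06), and below the floor in SNU-601. IGFBP5 was at 3456 and 3806 in CD133+ and 7226 and 7055 in CD133- cells of SNU-216 (-0.98, adjusted p = 0.000388). IGFBP2 was higher in CD133+ cells of KATO-III by 1.08 (1124 and 1128 against 521 and 546, adjusted p = 0.000449) and of SNU-601 by 1.38 (173 and 163 against 55.1 and 76.0, adjusted p = 0.00071).

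EPHA2, a receptor for the membrane-bound ephrin-A ligands that is abundant in epithelia, was highest in SNU-601. It was at 3071 and 2538 in CD133+ and 2143 and 2296 in CD133- cells of KATO-III, at 1479 and 1404 in CD133+ and 1517 and 1567 in CD133- cells of SNU-216, and at 2817 and 3044 in CD133+ and 3421 and 3108 in CD133- cells of SNU-601. SNU-216 lay under all other arrays, while KATO-III and SNU-601 overlapped through KATO-III CD133+ replicate 1. KATO-III exceeded SNU-216 1.67-fold (adjusted p = 5.78e-06), SNU-601 exceeded SNU-216 2.07-fold (adjusted p = 4.36e-07), and SNU-601 exceeded KATO-III 1.24-fold (adjusted p = 0.00231).

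Within KATO-III, EPHA2 was higher in CD133+ cells by 0.33 (SE 0.091, 1.26-fold, adjusted p = 0.0182). The value rested on single arrays: it was 0.19 without CD133+ replicate 1 (adjusted p = 0.121) and 0.28 without CD133- replicate 1 (adjusted p = 0.112), and it did not pass without the filter on dim genes (adjusted p = 0.0621). The differences in SNU-216 (-0.10, adjusted p = 0.52) and SNU-601 (-0.15, adjusted p = 0.321) did not pass. Of 8 ephrins 6 were tested. In CD133+ cells 0 were higher and 3 lower in KATO-III, 2 higher and 1 lower in SNU-216, and 0 higher and 1 lower in SNU-601, beside 39.3%, 28.6% and 16.4% of all genes. EFNA1, a ligand of EPHA2, was at 742 and 814 in CD133+ and at 1451 and 1351 in CD133- cells of KATO-III, a difference of -0.85 (SE 0.0692, adjusted p = 2.38e-05), opposite in sign to that of EPHA2. In SNU-216 EFNA1 had the other direction (0.27, adjusted p = 0.0164). EFNB1 lay between 828 and 1720 in KATO-III and SNU-601 and below the floor in SNU-216, and EFNB2 was highest in SNU-601 (6757 to 7063) and lowest in SNU-216 (2150 to 3342).

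AXL, the receptor of GAS6 and protein S, spanned a wide range and was lowest in KATO-III, where FGFR2 was high. It was at 118 and 104 in CD133+ and 114 and 108 in CD133- cells of KATO-III, at 12273 and 11537 in CD133+ and 11620 and 12306 in CD133- cells of SNU-216, and at 3211 and 3249 in CD133+ and 2103 and 2466 in CD133- cells of SNU-601. All KATO-III arrays were above the floor, so its level was measured and low. KATO-III was below SNU-216 by 108-fold (log2 -6.75, SE 0.061, adjusted p = 1.05e-12) and below SNU-601 by 24.5-fold (log2 -4.61, adjusted p = 2.48e-11), and SNU-216 exceeded SNU-601 4.40-fold (adjusted p = 1.88e-09).

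In SNU-601, AXL was higher in CD133+ than in CD133- cells by 0.50 (SE 0.0863, 1.42-fold, adjusted p = 0.00515), and the arrays did not overlap. In KATO-III and SNU-216 the fractions overlapped, with differences of -0.01 in both and adjusted p of 1. GAS6, the ligand of AXL, lay between 714 and 788 in KATO-III. It was at 2609 and 2809 in CD133+ and 3282 and 3282 in CD133- cells of SNU-216, and at 2741 and 2634 in CD133+ and 1864 and 2015 in CD133- cells of SNU-601. Ligand and receptor were therefore both lowest in KATO-III and both higher in the CD133+ cells of SNU-601, where the GAS6 difference was 0.47 (adjusted p = 0.00107). In SNU-216 they did not go together: GAS6 was called lower in CD133+ cells, while the AXL difference was -0.01 and not called. PROS1, the gene of protein S, was above the floor in SNU-216 alone, at 77.3 and 68.8 in CD133+ and 132 and 153 in CD133- cells (-0.96, adjusted p = 0.000422). For PROS1 too the arrays of the other lines, all at the floor, add no spread to this adjusted p.

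The differences between the fractions of a line can be set side by side. In KATO-III 5 of the 9 receptors tested differed, against 39.3% of all genes tested (18.7% higher and 20.6% lower): EPHA2, FGFR2, FGFR4 and MET were higher and MST1R was lower in CD133+ cells. In SNU-216 2 differed (FGFR3 and FGFR4, both higher), against 28.6% (14.6% higher and 14% lower). In SNU-601 3 differed (AXL higher, INSR and MST1R lower), against 16.4% (8.59% higher and 7.78% lower). The median difference of the 9 was 0.33 in KATO-III, -0.01 in SNU-216 and 0.03 in SNU-601, and that of all genes was 0 in each line. FGFR2 entered these counts and medians in SNU-216 and SNU-601 with a difference of 0 set by the floor. The fraction differences of 6 of the 9 receptors themselves differed between the lines by the F-test of the interaction of line and fraction, against 44.4% of all genes, namely those of AXL, EPHA2, FGFR3, FGFR4, MET and MST1R.

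**Figure D3:**
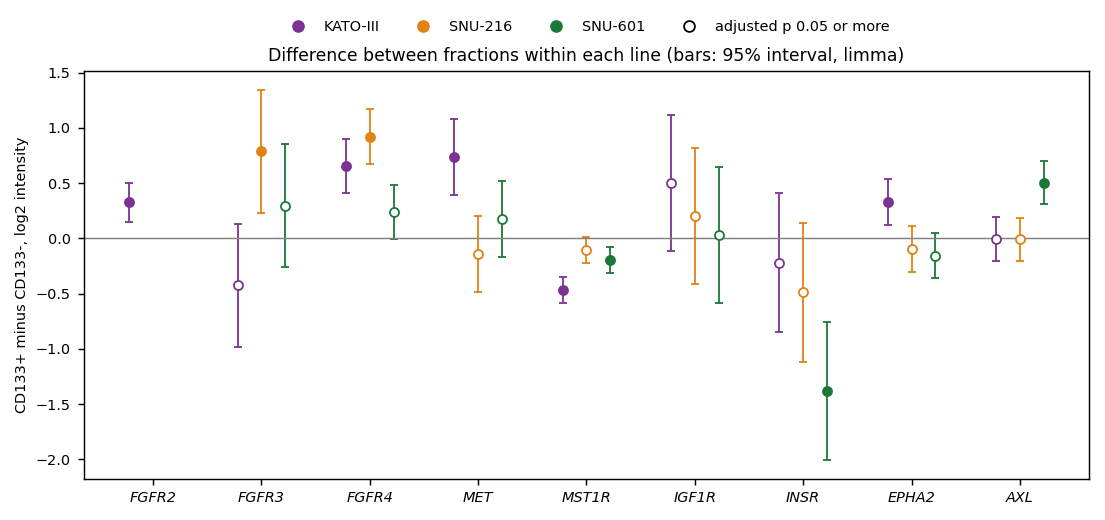
Difference in log2 intensity between CD133+ and CD133- cells (vertical axis) for the 9 receptors tested, in KATO-III (purple), SNU-216 (orange) and SNU-601 (green), with 95% intervals from limma and open points where the adjusted p was 0.05 or more. FGFR4 lies above 0 and MST1R below 0 in each line, while MET, EPHA2 and AXL each had a called difference in 1 line, and FGFR2 has no point where both fractions were at the floor.

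Over all lines, with cell line as a block, FGFR4 was the 1 receptor called, against 4.73% of all genes (2.62% higher and 2.11% lower). It was higher in CD133+ cells by at least 0.60 (SE 0.122, 1.52-fold, adjusted p = 0.0245), with each of the 6 CD133+ arrays above both CD133- arrays of its line. The call was lost without any of the 4 KATO-III arrays (adjusted p from 0.0636 to 0.0661) and without SNU-216 CD133- replicate 2 (adjusted p = 0.0516). It was also lost with a floor of 100 (0.30, adjusted p = 0.0797), with the 2 arrays of a population averaged first (adjusted p = 0.796) and when the population was fitted as a random effect (adjusted p = 0.232). With averaged arrays no gene passed, and the adjusted p of PROM1 was 0.796 too, so that setting says nothing particular to FGFR4. MST1R came next (-0.26, adjusted p = 0.0595), then INSR (-0.70, adjusted p = 0.0785), which passed without KATO-III CD133- replicate 1 (-0.86, adjusted p = 0.0475). The other adjusted p-values were 0.268 for MET, 0.296 for AXL, 0.343 for IGF1R, 0.469 for FGFR2 (at the floor outside KATO-III), 0.517 for FGFR3 and 0.876 for EPHA2.

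The study names a signal-to-noise ratio with thresholds of 1 and -1. Its formula is not given in the sources used here, and it was computed as the difference between the mean CD133+ and mean CD133- intensity (6 arrays each) over the sum of both SDs. On the deposited scale 0 of the 10 receptors passed, where 332 of 34595 genes (0.96%) did. They ranged from -0.793 for INSR to 0.504 for MET. The differences between lines enter the SDs of this ratio. This is a description with no test, and the limma count over all lines was 1.

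Among 45 other receptor tyrosine kinases, 22 were tested. Of the 23 that were not, 22 exceeded the floor on no array, among them KIT, PDGFRA, PDGFRB, KDR and RET. Between lines, 4 were higher and 10 lower in KATO-III than in SNU-216, 8 higher and 9 lower in KATO-III than in SNU-601, and 9 higher and 7 lower in SNU-216 than in SNU-601, against 62%, 58.6% and 56.5% of all genes tested that differed. In CD133+ cells, 4 were higher and 5 lower in KATO-III, 7 higher and 3 lower in SNU-216, and 2 higher and 1 lower in SNU-601, and the shares over all genes were 39.3%, 28.6% and 16.4%. PTK7, a pseudokinase of the Wnt pathway, was below the floor in KATO-III, between 80.5 and 181 in SNU-216 and between 668 and 887 in SNU-601. EPHB3 was between 317 and 428 in KATO-III, between 278 and 334 in SNU-601 and below the floor in SNU-216.

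Within SNU-216, 2 ephrin receptors had the largest fraction differences of that list. EPHA4 was at 281 and 339 in CD133+ and at 54.1 and 83.7 in CD133- cells (2.20, SE 0.25, adjusted p = 0.000284), and EPHB6 at 483 and 485 against 125 and 113 (2.03, SE 0.141, adjusted p = 2.05e-05). Over all lines 2 of the 22 were called, against 4.73% of all genes, which are named here after their values were seen. ROR1, a Wnt5a receptor, was higher in CD133+ cells (0.54, SE 0.109, adjusted p = 0.0245), and DDR1, a collagen receptor, was lower (-0.34, SE 0.0755, adjusted p = 0.0339). Neither passed with the arrays of a population averaged first (adjusted p = 0.796 for each), where no gene passed, or with the population as a random effect (0.279 and 0.246). In KATO-III, ERBB2 and ERBB3, partners of each other, were lower in CD133+ cells. ERBB2 was at 1134 and 1171 in CD133+ and 1974 and 1865 in CD133- cells (-0.74, adjusted p = 2.29e-05), and ERBB3 at 563 and 665 against 1593 and 1472 (-1.32, adjusted p = 1.33e-05). These receptors too are named after their values were seen.

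**Figure D4:**
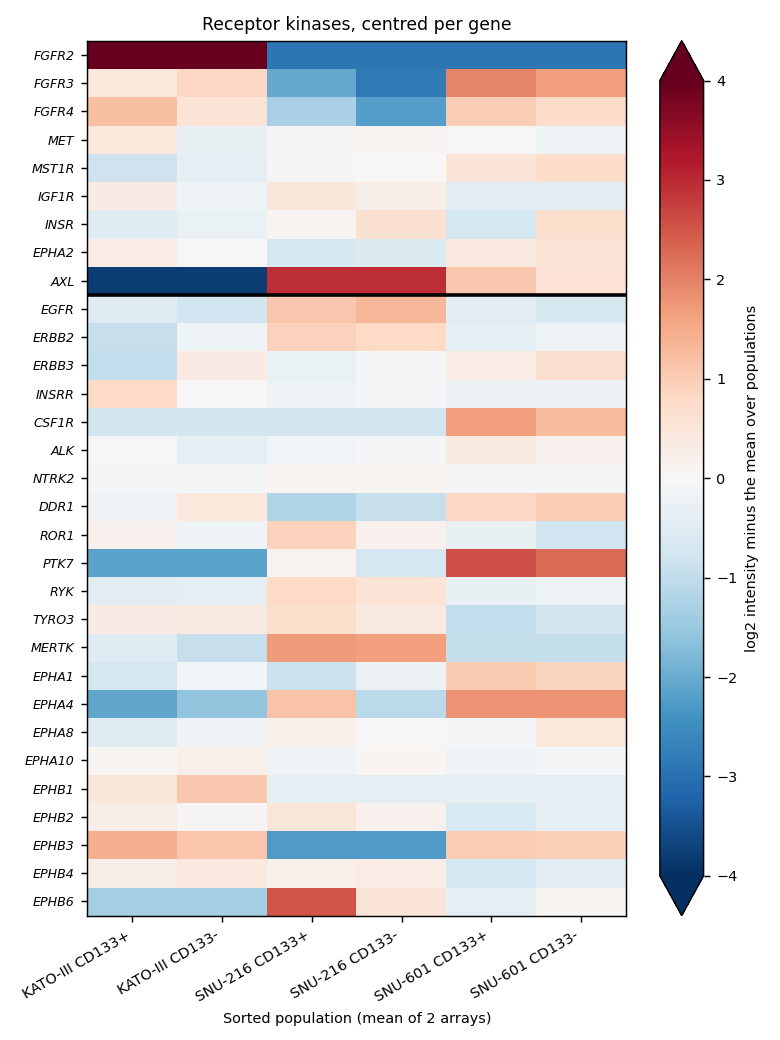
Log2 intensity of the 9 receptors tested (above the black line) and of 22 other receptor kinases (below it) in the 6 sorted populations, each the mean of 2 arrays with the mean of the gene subtracted, from blue (lower) to red (higher), with colours ending at -4 and 4. FGFR2 is high in both fractions of KATO-III and AXL low in both, while EPHA4 and EPHB6 differ between the fractions of SNU-216.

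Of 18 adaptors, kinase subunits and ubiquitin ligases that act downstream of the receptors, 15 were tested. FRS2, the docking protein of FGF receptors, and GAB1, that of MET, exceeded the floor on no array. In CD133+ cells 4 were higher and 6 lower in KATO-III, 2 higher and 5 lower in SNU-216, and 3 higher and 2 lower in SNU-601, and 0 were called over all lines, where all genes gave 39.3%, 28.6%, 16.4% and 4.73%. LRIG1, a membrane inhibitor of ERBB and MET receptors, was at 5598 and 5200 in CD133+ and at 3421 and 3364 in CD133- cells of KATO-III (0.67, SE 0.0447, adjusted p = 8.07e-06), and between 1092 and 1318 in the other lines. GAB2, a docking protein, was at 168 and 166 in CD133+ and at 330 and 298 in CD133- cells of KATO-III (-0.91, adjusted p = 0.000214). CBLB, a ubiquitin ligase that marks active receptors for degradation, changed in opposite directions. It was at 2249 and 2281 in CD133+ and at 958 and 1028 in CD133- cells of SNU-216 (1.19, adjusted p = 7.87e-06), and lower in CD133+ cells of KATO-III (-0.47, adjusted p = 0.000552) and SNU-601 (-0.46, adjusted p = 0.00244). PIK3R1, the regulatory subunit of PI3K, was lowest in SNU-216 (73.5 to 96.4, against 277 to 350 in the other lines). SOS2, a RAS exchange factor, was at 35.5 and 54.1 in CD133+ and at 91.1 and 99.0 in CD133- cells of KATO-III (-1.12, adjusted p = 0.00426).

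As a description over the 12 arrays, with no test, the genes whose log2 intensities were most like those of FGFR2 were GAGE2A, SUMO1P1, CHST4, PIP5K3 and GAGE12F. Pearson's r exceeded 0.99 for 142 genes, since a gene above the floor in KATO-III alone has nearly this pattern by construction. For MET, none exceeded 0.99, and the 5 most alike were RTCD1 (r = 0.898), LOC388076 (0.894), SLC25A13 (0.890), NEUROG2 (0.887) and USP48 (0.886). The arrays share lines and populations, so the 12 points are not independent.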

How the data were processed

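Receptor kinase RNA was measured on 12 Illumina HT-12 v3 arrays. The authors hybridized labelled cRNA of sorted cells, exported intensities with BeadStudio (version not given in the sources used here) and quantile-normalized them, and the deposited intensities are linear with 1 row per gene symbol. No source used here says how several probes of 1 gene were merged. Values ran from -56.4 to 23394, and 32.1% did not exceed 0, as after subtraction of a background. Of 34688 rows 93 were empty. No genome build applies to the values.

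Intensities under 32.7 were raised to this floor before log2 was taken. The floor mirrors the 1st percentile of the values and was chosen from them. Genes above the floor on 2 arrays entered limma 3.58.1 (R 4.3.3), with 6 population means, a mean-variance trend, 6 residual degrees of freedom and Benjamini-Hochberg adjustment over 20147 genes. The effect over all lines had cell line as a block (8 residual degrees of freedom). A fold against a group at the floor is a lower bound. The number of arrays limits the precision.

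Receptors, gene lists and tests were chosen with earlier results of these data known. Named genes were the 10 receptors and, per list, up to 3 with the largest range of line means (for neighbours, 4 by KATO-III against the other lines) and 2 with the largest called fraction difference. Exceptions are stated, and also cover direct neighbours and absent ligands. Windows of 20 genes were added after the neighbour lists. Leaving out arrays was run for the 10 receptors. Scripts were tested on simulated data. Alternatives covered the floor, an offset, normalization, the filter, the trend, the replicate number, each array, averaging, a random block and, added after seeing the data, a fit of each line on its own arrays. Tables and figures used Python 3.11.15, numpy 2.4.6, pandas 2.3.3 and matplotlib 3.10.9.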

Additional observations from a re-analysis of the deposited data

Results flagged for a closer look

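The difference between fractions itself differed between the cell lines for 6 of the 9 receptors tested, by the F-test of the interaction of line and fraction in limma, where 44.4% of all genes tested were called. The adjusted p was 0.0086 for MST1R, whose difference was -0.47, -0.11 and -0.20 in KATO-III, SNU-216 and SNU-601, and 0.011 for AXL, higher in CD133+ cells in SNU-601. It was 0.0152 for FGFR4, 0.0231 for MET, 0.0236 for EPHA2 and 0.0486 for FGFR3. The calls of MST1R, AXL and FGFR4 held without each array. That of FGFR3 was lost without any array but the SNU-216 CD133- ones (adjusted p up to 0.152). That of MET was lost without KATO-III CD133+ replicate 1, KATO-III CD133- replicate 2, SNU-216 CD133+ replicate 1 or SNU-216 CD133- replicate 1 (up to 0.113). That of EPHA2 was lost without KATO-III CD133+ or CD133- replicate 1, SNU-216 CD133+ or CD133- replicate 2, or SNU-601 CD133+ or CD133- replicate 1 (up to 0.102). FGFR2, at the floor in SNU-216 and SNU-601, has no difference between fractions there to compare. INSR did not pass (0.0782), but did without KATO-III CD133- replicate 2 (0.0114). With no filter on dim genes MET, EPHA2 and FGFR3 did not pass (0.0946, 0.0829 and 0.167), FGFR3 also missed the threshold with a floor of 16, with median-centred arrays and without the trend (0.0527, 0.0525 and 0.066), and with an offset of 100 in place of the floor FGFR4 did not (0.124).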

How the results depend on the processing

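The arrays had no depth to vary, and signal over background was the limit for IGF1R, INSR and the SNU-216 values of FGFR3 and FGFR4. With a floor of 100, 0 receptors were called between the fractions of SNU-216 (2 in the report) and 0 over all lines (1 in the report), and FGFR3 and FGFR4 had no value in SNU-216, where all arrays were at that floor. With the filter of all arrays above the floor, which removes FGFR2, FGFR4, IGF1R and INSR, the counts were 4 for KATO-III against SNU-216 (7), 4 over the lines (8), 3 in KATO-III (5), 1 in SNU-216 (2) and 0 over all lines (1). With no filter, and with no trend, 1 was called in SNU-216. Averaging the arrays of a population, or a random block, gave 0 over all lines. Leaving out 1 array gave 3 to 6 receptors in KATO-III, 1 to 2 in SNU-216, 1 to 4 in SNU-601, 0 to 1 over all lines, 3 to 6 for the interaction and 0 to 1 past the signal-to-noise thresholds (INSR, without KATO-III CD133- replicate 1). With each line fitted on its own 4 arrays, which was chosen after seeing the data, 1 receptor was called in SNU-216 (FGFR4), 6 in KATO-III and 3 in SNU-601. Of the values for single receptors, with arrays left out entering only by their lowest and highest value, 623 kept their direction and side of the threshold, 19 no longer passed, 8 newly passed and 11 changed sign. Those that changed sign had not passed the threshold: FGFR3 over all lines (-0.043 at a floor of 100), IGF1R in SNU-601 (-0.0031 with an offset of 100) and AXL in KATO-III (0.0375 after repeated quantile normalization or median centring). Over the arrays left out, these ran through 0: AXL in KATO-III (-0.098 to 0.087) and SNU-216 (-0.052 to 0.037), IGF1R in SNU-216 (-0.14 to 0.54), INSR in KATO-III (-0.65 to 0.22), EPHA2 over all lines (-0.046 to 0.066), FGFR4 between KATO-III and SNU-601 (-0.0091 to 0.040) and MET between KATO-III and SNU-216 (-0.037 to 0.090). The cause was not tested. Replicate numbers did not pair the arrays: the replicate differences of 15 pairs of populations correlated between -0.0116 and 0.0276. With a replicate block the receptors called stayed at 7, 6 and 6 between lines, 8 over the lines, 5, 2 and 3 between fractions, 6 for the interaction and 1 over all lines. Over all genes and all lines, 953 were called in the report, 471 with the replicate block, 425 with no filter, 217 to 851 without an array, 1 with a random block and 0 with averaged arrays.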
